A study of Rattus norvegicus with 30 samples.

Results

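Of the 22521 probes on the array, 151 (0.67%) changed by at least 1.5-fold over 5 days of induction in 1 of the Q74 cell lines, line 4, while staying nearly level in the other, line 6. These responders of Q74 line 4 only were chosen on the deposited values, which are read here as natural logs. A member had a mean day 5 minus day 0 difference of at least 0.405, up or down, in line 4 and of less than 0.1 (1.11-fold) in line 6. Of the 151, 82 had higher values at day 5 in line 4 (the upward members) and 69 had lower values (the downward members). Of the 151, 10 form 5 pairs of probes with identical values on every array, which leaves 146 distinct profiles, 79 upward and 67 downward. The day 0 and day 5 values of both Q74 lines chose the members, so they are described below without a test.

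The cells were rat PC12 cells, a phaeochromocytoma line. The construct lines carried a doxycycline-inducible exon 1 fragment of huntingtin fused to GFP, with 23 glutamines (Q23, lines 1 and 5) or 74 glutamines (Q74, lines 4 and 6). RNA came from uninduced cells (day 0) and from cells given 1 μg/ml doxycycline for 1 or 5 days, with 2 RNA isolations of each line and day, on 24 arrays. Another 6 arrays, 2 on each day, held RNA of PC12 cells without a construct that were kept in the same way, with doxycycline. All cultures were grown in medium with G418 and hygromycin. Each line was derived independently, and line 4 is a single line, so its response and its derivation cannot be told apart. The 2 RNA isolations measure technical spread only, and whether the PC12 arrays of a day came from separate cultures is not stated. In the sample titles, the PC12 arrays of a day also differ in the number that gives the line in the construct titles. How much fusion protein or transcript each line made was not analysed here.

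A long polyglutamine stretch makes the exon 1 fragment of huntingtin misfold and gather into aggregates, and such inducible lines are used to follow transcripts as this happens. Lines made with the same construct can still differ, since each integrates its construct at its own place and is expanded from its own founder cells. Doxycycline switches the construct on through a tetracycline-controlled promoter, so each line serves as its own uninduced control.

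The files do not pair the probes with genes, so members are given by probe identifier, with no gene names or sequences, and the labelled cell type could not be checked against markers. The median of all values was 4.79, and the values of all arrays lay between 3.91 and 11.1. Probes below 4.79 lie near the array's background, where the normalisation is close to linear and a difference understates the fold change. The median SD between RNA isolations was 0.0848 over all probes and 0.115 over the members. For an average probe this gave a day 5 minus day 0 difference a standard error of 0.0848, close to the limit of 0.1 set in line 6.

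One array of the rule stood apart, the day 0 array of Q74 line 4, isolation 1. Its values and those of isolation 2 differed with an SD of 0.183, against 0.115 to 0.153 for the other pairs of isolations. In this pair 450 probes lay more than 0.5 apart, against 14 to 173 in the others, and 19 of the 450 were members. The day 1 mean of line 4 was further from isolation 1 in 340 of the 450 and from isolation 2 in 110. Over all probes, the difference from that day 1 mean had an SD of 0.143 in isolation 1 and 0.111 in isolation 2. Isolation 1 lay more than 0.2 outside the range of the 28 arrays other than this pair in 193 probes, and isolation 2 in 6. The array entered the choice of every member, and the levels below are also given for members chosen again without it.

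The members were a minority of what changed in line 4. In all, 850 probes (3.77%) passed the threshold in line 4 between day 0 and day 5, with 431 higher and 419 lower (347 and 461 without the outlying array). Of these, 175 (20.6%) passed it in line 6 in the same direction and 502 (59.1%) moved in the same direction in line 6 by 0.1 to 0.405. The 151 members made up 17.8%, and 22 probes (2.59%) moved the opposite way in line 6 by at least 0.1. The mirror case was rarer: of the 255 probes past the threshold in line 6, 18 (7.06%) stayed within 0.1 in line 4.

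**Figure D1:**
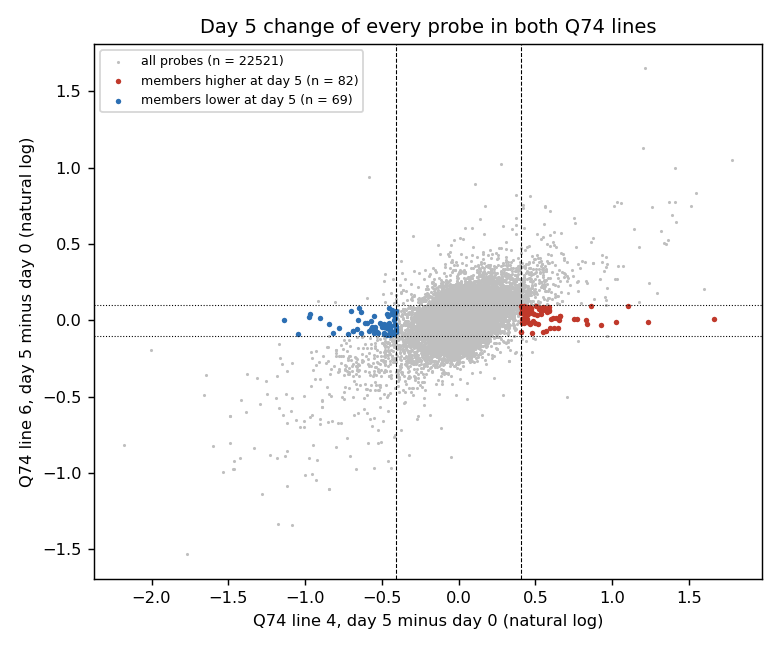
Each point is 1 probe, with its day 5 minus day 0 difference in Q74 line 4 on the x axis and in Q74 line 6 on the y axis, both natural log, each the mean of 2 RNA isolations. Dashed lines mark 0.405 and dotted lines 0.1 in either direction; the 82 upward members (red) and 69 downward members (blue) form the ends of the flat band through 0, beside a cloud of probes that moved in both lines.

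The thresholds cut through a continuum. The member nearest to the line 4 threshold had a difference of -0.4056 there and of -0.0774 in line 6, and the nearest probe outside it had 0.4038 in line 4 and 0.014 in line 6. The member nearest to the line 6 limit had 0.0963 in line 6, and the nearest line 4 responder outside it had 0.1014. Within 0.02 of the line 4 threshold lay 28 members and, just below it, 33 probes that were not taken. Within 0.02 of the line 6 limit lay 30 members, and 42 line 4 responders lay just over it.

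Most members changed modestly in line 4. The median day 5 minus day 0 difference was 0.475 in the upward members, from 0.406 to 1.665, and -0.489 in the downward members, down to -1.139. A 2-fold change was reached by 20 members, 10 in each direction (8 upward and 10 downward without the outlying array). In line 6 the medians were 0.043 and -0.041, and 109 of 151 members (72.2%) leaned the same way as in line 4, against 60.5% of all probes. The level of the members over the 30 arrays was mostly above background, with a median of 6.39 against 4.79 for all probes.

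The RNA isolations of line 4 often disagreed on whether a member passed. Here day 0 and day 5 arrays were matched by isolation number, which did not qualify as pairing by the check given at the end. Counts by isolation thus depend on that match. Both isolations passed the threshold on their own in 70 members, 38 upward and 32 downward. Only isolation 1 passed in 65 members and only isolation 2 in 16. In 3 upward members, all passing in isolation 1 only, the isolations moved in opposite directions. The median difference along the member's direction was 0.578 in isolation 1 and 0.435 in isolation 2, and isolation 1 gave the larger one in 113 of 151 members. Over all probes, 1430 (6.35%) passed the threshold in isolation 1 and 755 (3.35%) in isolation 2. In line 6, both isolations lay within 0.1 in 81 members, 1 of them did in 60 and neither in 10.

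**Figure D2:**
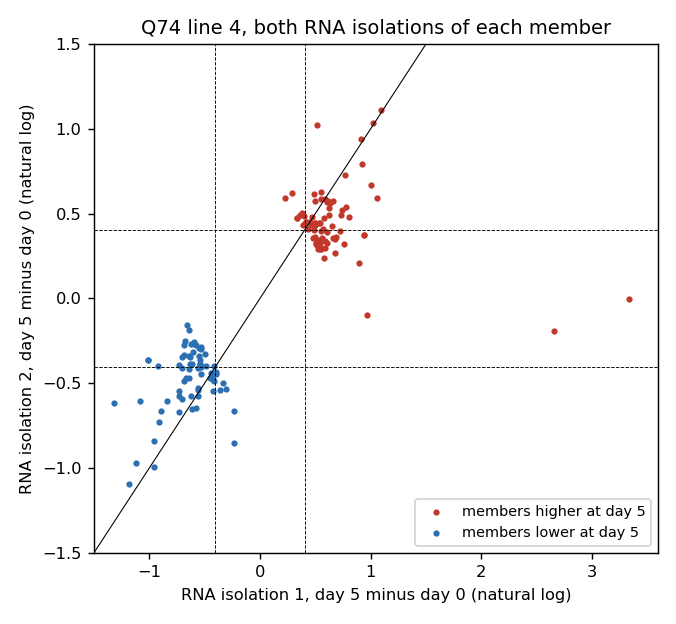
Each point is 1 member, with its day 5 minus day 0 difference in Q74 line 4 in RNA isolation 1 (x axis) and in isolation 2 (y axis), natural log; dashed lines mark 0.405 in either direction and the solid line equal values. In 113 of 151 members isolation 1 gave the larger change, and 2 upward members lie far to the right, at 2.654 and 3.331 in isolation 1 with -0.192 and -0.001 in isolation 2.

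The upward members with the largest mean difference rested on the outlying array alone. One of them read 5.40 in isolation 1 and 8.84 in isolation 2 of line 4 at day 0, then 8.73 and 8.84 at day 5. On every array but that first one it lay between 8.51 and 9.07, so its difference of 1.665 came from a single array. The next one read 5.29 and 8.23 at day 0 and 7.95 and 8.04 at day 5, a difference of 1.231, and lay between 7.88 and 9.04 on the remaining arrays. Neither changed in isolation 2 by as much as 0.2.

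Without the day 0 array of isolation 1, the rule took 183 probes, 70 higher and 113 lower, of which 89 were among the 151, and 62 members fell short of the line 4 threshold. Without the day 0 array of isolation 2 it took 463 probes, 296 higher and 167 lower, 127 of them shared. Leaving out either day 5 array of line 4 gave 207 and 212 probes, with 118 and 117 shared. Leaving out an array of line 6 gave 155 to 186 probes, with 113 to 124 shared. Among the 8 arrays of the rule, the day 0 arrays of line 4 thus gave both the highest count when left out (463) and the fewest shared members (89).

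Each isolation was also used to choose and the other to read. Both isolations came from the same lines and days, so this describes technical spread and not whether a response recurs in another line. The rule on isolation 1 alone took 397 probes. In isolation 2 these had a median line 4 difference of 0.211 along their direction, 355 kept the direction and 70 (17.6%) passed the threshold, against 3.35% of all probes. The rule on isolation 2 alone took 141 probes. In isolation 1 these had a median of 0.438, 130 kept the direction and 76 (53.9%) passed, against 6.35% of all probes. Line 6 was read in the same way. Of the 397, 235 (59.2%) stayed within 0.1 in line 6 in the other isolation, and of the 141, 71 did (50.4%), beside 58.2% and 58.6% of all probes. Read in RNA that had not chosen them, the probes lay within the line 6 limit about as often as any probe in the first case. In the second case they did so less often. Most probes were level in line 6, with 68.8% within 0.1 by the mean of both isolations. A share near that of all probes thus does not mean that the chosen probes moved. Of the 850 line 4 responders, 17.8% lay within 0.1 by that mean, which also chose the members.

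The probes shown in detail are the 2 upward and 2 downward members with the largest mean change among those past the threshold in both isolations. The upward probe ILMN_2039308 gave 4.89 and 4.75 in line 4 at day 0, 4.78 and 4.84 at day 1, and 5.98 and 5.86 at day 5. Its day 0 and day 1 values overlapped, and only the day 5 arrays of line 4 stood out. The 24 arrays of the other lines and of PC12 lay between 4.66 and 4.95. The mean difference at day 5 was 1.102 (3.01-fold) in line 4 and 0.091 in line 6.

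The upward probe ILMN_1376983 gave 4.70 and 4.32 in line 4 at day 0, 4.88 and 4.50 at day 1, and 5.71 and 5.35 at day 5. Isolation 1 lay above isolation 2 on every day, and both moved by a similar amount, 1.027 on average (2.79-fold). The other construct lines stayed between 4.36 and 4.63 and the PC12 arrays between 4.72 and 4.94. Both upward probes thus started near the median of all values or below it in every construct line, and line 6 stayed there.

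The downward probes had a different starting point. ILMN_1373199 gave 6.14 and 5.85 in line 4 at day 0, 5.83 and 5.55 at day 1, and 4.95 and 4.76 at day 5, a difference of -1.139 (0.32-fold). All 6 arrays of line 6 lay between 4.47 and 4.55, below the median of all values, so this probe was near the background in line 6 before induction. The Q23 arrays lay between line 6 and the day 0 and day 1 values of line 4, from 4.96 to 5.35, and the PC12 arrays from 4.74 to 5.05.

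ILMN_1372916 gave 7.19 and 6.86 in line 4 at day 0, 6.95 and 6.76 at day 1, and 6.08 and 5.89 at day 5, a difference of -1.044 (0.352-fold). Line 6 lay between 5.55 and 6.00 on all days, which overlapped the day 5 values of line 4 and none of its earlier ones. Its isolations disagreed, with day 5 minus day 0 differences of -0.343 in isolation 1 and 0.161 in isolation 2. Neither lay within the limit of 0.1, and the probe met it only by their mean of -0.091. The Q23 arrays lay from 6.13 to 6.59. The PC12 arrays lay from 6.25 to 6.89. Here line 6 was not near the background, but already as low before induction as line 4 was after 5 days.

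**Figure D3:**
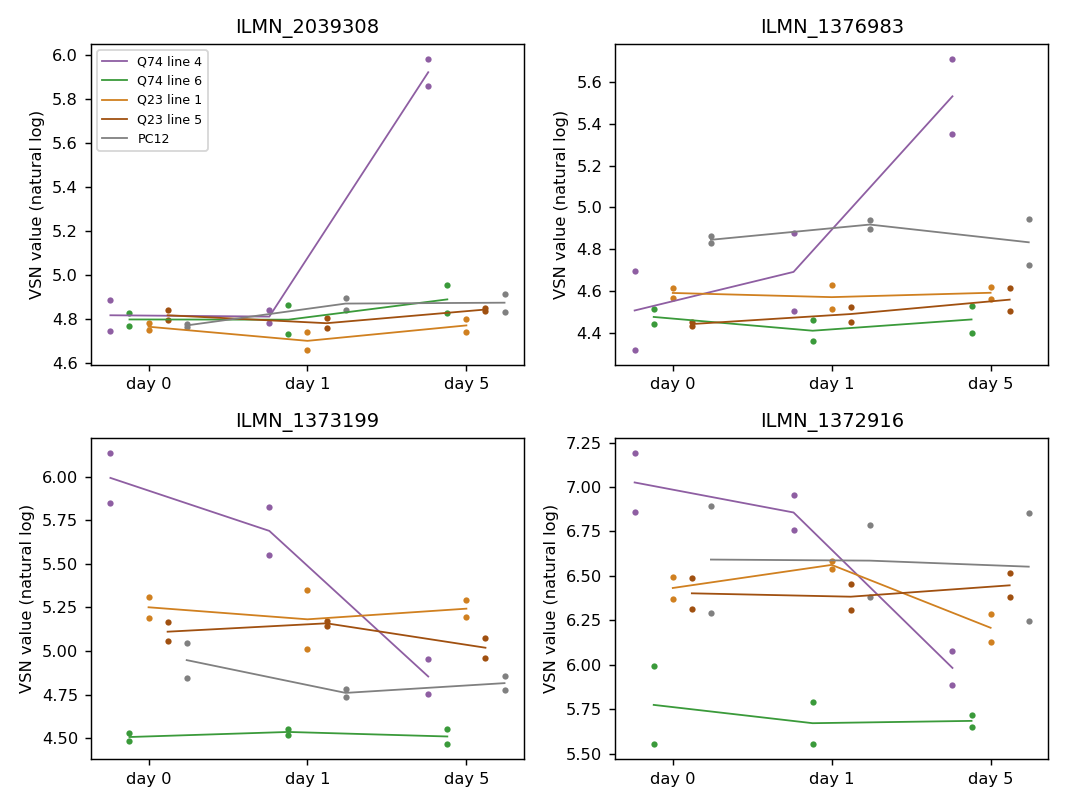
Values of the 4 probes (y axis, VSN value, natural log) at days 0, 1 and 5 (x axis); points are single arrays, lines join the mean of the 2 arrays of a line and day. In the upper panels line 4 at day 5 lies above all other construct arrays; in the lower panels the mean of line 4 starts highest and is lower at day 5, while line 6 is low throughout.

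The day 1 arrays, which the rule had not used, allowed a test between the Q74 lines. With 1 line on each side, its p-values measure the spread between RNA isolations only. The downward probes were picked for their fall from day 0 in line 4. At day 1 they still lay nearer to the day 0 than to the day 5 level there. Their day 1 levels in line 4 are thus not independent of that choice. In the limma fit on RNA isolations, ILMN_1373199 was higher in line 4 than in line 6 by 1.153 ± 0.107 (SE, adjusted p = 8.73e-08) and ILMN_1372916 by 1.186 ± 0.181 (adjusted p = 7.32e-05). Line 6 was below the mean of both Q23 lines, with limma estimates of -0.635 ± 0.0929 (adjusted p = 3.66e-05) for the first and -0.802 ± 0.156 (adjusted p = 0.00114) for the second. Line 4 was above Q23 in ILMN_1373199, by 0.519 ± 0.0929 (limma, adjusted p = 0.00125). For ILMN_1372916 that estimate was 0.384 ± 0.156, which did not pass (limma, adjusted p = 0.293). With the lines as replicates, Q74 minus Q23 at day 1 was -0.058 ± 0.455 for ILMN_1373199 (limma, adjusted p = 0.994). For ILMN_1372916 it was -0.209 ± 0.418 (limma, adjusted p = 0.982). The upward probes did not pass between the Q74 lines in limma at day 1, with 0.014 ± 0.0695 (adjusted p = 0.965) for ILMN_2039308 and 0.282 ± 0.118 (adjusted p = 0.204) for ILMN_1376983.

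The change in line 4 came late. One day after induction the median difference from day 0 along the member's direction was 0.075 in line 4, against 0.033 for all probes read along their own direction. The day 0 arrays enter the day 1 and the day 5 difference alike, so this is a description. It was 0.06 in the upward and 0.1 in the downward members. A difference along that direction was seen in 115 of 151 members (76.2%, against 66.9% of all probes), one of at least 0.2 in 18 (11.9%, against 2.28%), and one past 0.405 in 3, beside 0.142% of all probes past it in either direction. The isolations differed: upward members had a day 1 median of 0.114 in isolation 1 and 0.014 in isolation 2, and downward members 0.077 and 0.082. With the outlying array left out and the same 151 members, the medians were -0.018 in the upward and 0.016 in the downward members, against 0.06 and 0.1 with it. For the 183 probes chosen again without it, the overall median was 0.152, with the day 0 value then resting on 1 array.

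Of the 3 members past the threshold at day 1, 2 are the probes that rest on the outlying array. The third is an upward member in which both Q74 lines moved at day 1, singled out after its values were seen. In line 4 it gave 5.50 and 5.40 at day 0, 5.85 and 6.29 at day 1, and 5.73 and 5.99 at day 5. In line 6 it gave 5.60 and 5.72 at day 0, 6.02 and 6.19 at day 1, and 5.59 and 5.75 at day 5. Line 6 was higher by 0.441 at day 1, the sole member past the threshold there (25 of all probes were, 0.111%), and was back at 0.006 by day 5, whereas line 4 was higher by 0.617 and then by 0.41. For this member the lines shared the early difference, and the day 5 values alone told them apart.

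At day 1 line 6 was near its day 0 level in most members, about as often as over all probes. The difference from day 0 lay outside 0.1 in 24 (15.9%), against 17.1% of all probes. The day 0 arrays of line 6 also chose the members. The medians along the line 4 direction were -0.017 in the upward and 0.013 in the downward members.

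**Figure D4:**
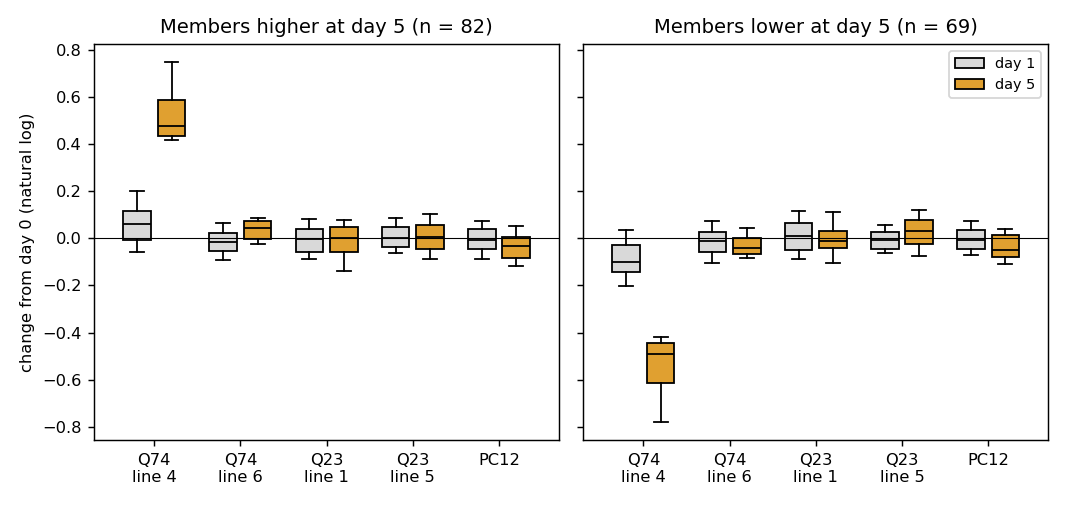
Change from day 0 (y axis, natural log) at day 1 (grey) and day 5 (orange) in each line for the 82 upward and 69 downward members; boxes span the quartiles, the bar is the median and whiskers run from the 10th to the 90th percentile over members. Only Q74 line 4 at day 5 leaves the neighbourhood of 0, by the choice of the members, and its day 1 medians are 0.06 and -0.1.

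In the 151 members, where line 6 stood differed between the directions, and for downward members this depended on the outlying array. At day 0 the downward members were lower in line 6 than in line 4 by a median difference of -0.383, and at day 1 by -0.301. At day 5 the order had turned, with line 6 above line 4 by 0.136. In the upward members the medians of line 6 minus line 4 were 0.023 at day 0, -0.005 at day 1 and -0.409 at day 5. The median absolute gap between the lines at day 1 was 0.152 in the upward and 0.382 in the downward members, against 0.076 for all probes. The day 0 and day 5 values here chose the members, so only the day 1 value comes from arrays that the rule did not use. Without the outlying array, line 6 minus line 4 at day 0 was 0.004 in the same upward and -0.27 in the same downward members. In members chosen again without it, 70 upward and 113 downward, it was -0.02 and -0.057. Line 4 minus line 6 at day 1 then turned in the downward members, to -0.099 from 0.301, and was 0.083 in the upward ones. With each of the other 7 arrays of the rule left out instead, the downward day 1 median stayed above 0, from 0.017 without isolation 2 of line 4 at day 5 to 0.349. It was 0.434 in the 32 downward members past the threshold in both isolations.

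The downward members of the full list had line 4 above and line 6 below the mean of both Q23 lines at days 0 and 1, by their medians. The median for line 4 was 0.115 at day 0, 0.091 at day 1 and -0.389 at day 5. For line 6 it was -0.125, -0.162 and -0.169. In the upward members, line 4 had -0.08, -0.029 and 0.42, and line 6 had -0.019, -0.034 and -0.002. Over all probes these medians lay between -0.003 and 0.004. In the 113 downward members chosen without the outlying array, the day 1 median was -0.118 in line 4 and 0.01 in line 6, the opposite order. In the 70 upward ones it was 0.026 and -0.078.

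**Figure D5:**
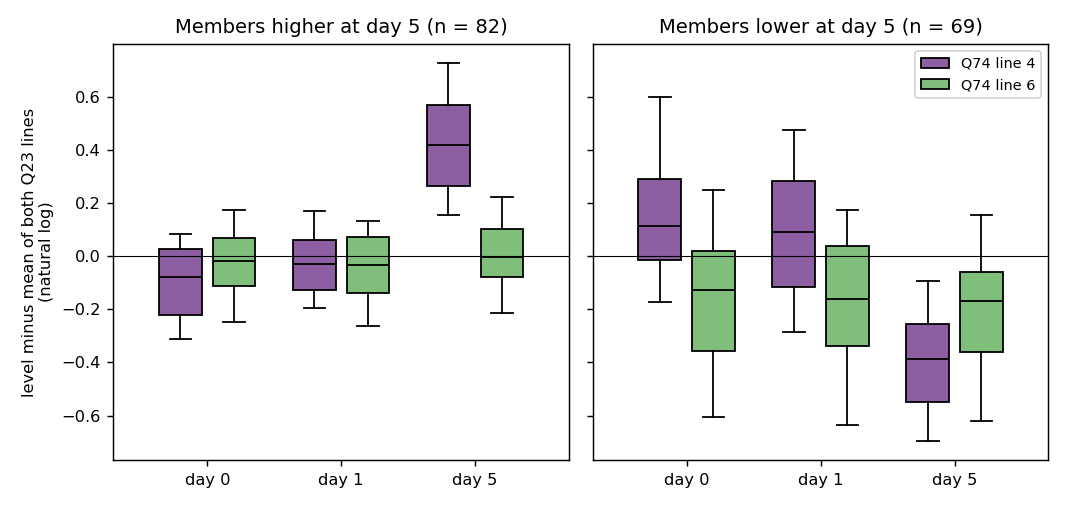
Level of Q74 line 4 (purple) and Q74 line 6 (green) minus the mean of both Q23 lines (y axis, natural log) at days 0, 1 and 5 (x axis), for the 82 upward and 69 downward members; boxes span the quartiles, the bar is the median and whiskers run from the 10th to the 90th percentile. In the downward members line 6 stays near its day 1 median of -0.162 throughout, while line 4 goes from 0.115 to -0.389.

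In 39 of the 69 downward members (56.5%, against 46.6% of all probes along their own direction), line 6 at day 1 lay closer to the day 5 level of line 4 than to its day 0 level. In 20 of them (29% of the 69, against 31.6% of all probes) it was beyond the level that line 4 reached, and in 19 between the midpoint and that level. The mean of the Q23 lines lay on that side in 20 downward members (29%, against 45.5% of all probes), so for 21 members line 6 did and Q23 did not, and for 18 both did. Among the 82 upward members, line 6 was closer to the day 5 level of line 4 in 18 (22%, against the same 46.6%) and Q23 also in 18, with 10 in common. The day 0 and day 5 levels of line 4 that define this scale also chose the members. Over all probes the scale is far shorter, as their line 4 differences had quartiles of -0.08 and 0.079. Small offsets between lines place such probes on either side, so their shares are not a like-for-like baseline. Without the outlying array, the counts in members chosen again were 39 of 113 downward (34.5%) and 12 of 70 upward (17.1%), against 47.3% of all probes.

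Few of these levels lay near the background. In line 6 at day 0, 2 downward and 12 upward members lay below the median of all values, 14 in all (9.27%), against 50.5% of all probes. In line 4 at day 0 this held for 10 upward and 0 downward members. The 2 downward members were the only ones that lay both below the median and closer to the day 5 level of line 4. The rest of these 39 downward members were measured above the median of all values.

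The day 1 arrays gave the test of the difference between the Q74 lines. With 1 line on each side, the p-values measure the spread between RNA isolations only. In line 4 the day 1 difference from day 0 lay within 0.1 in 88 of the 151 members (58.3%, against 76.9% of all probes). Levels at day 1 thus stay tied to the day 0 levels that chose the members. In the limma fit, 46 of 151 members (30.5%) differed between line 4 and line 6, against 6.13% of all probes. Among downward members 26 of 69 were higher in line 4 (37.7%, against 3.05% of all probes) and 5 were lower (against 3.08%). Among upward members 12 of 82 were higher in line 4 and 3 lower. Both line 4 arrays lay above both line 6 arrays in 44 downward members, beside 24.8% of all probes, and below them in 13, beside 20.2%. In the upward members these were 24 and 22.

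This was shared with other line 4 responders. Of the 350 other probes that were lower at day 5 in line 4 by the threshold, 105 (30%) were higher in line 4 at day 1 and 19 were lower, and of the 349 upward ones 45 were higher and 33 lower. The count among the members depended on single day 1 arrays. When 1 was left out, the count over all probes moved in the same direction as that among the members. Such a fit leaves 1 array on a side, so its counts are not given. Of the 183 probes chosen without the outlying day 0 array, 53 (29%) were called, but the direction among downward members was lost: 21 of the 113 were higher in line 4 (18.6%) and 20 lower (17.7%). Of the 70 upward ones 11 were higher and 1 lower. With each of the other 7 arrays of the rule left out, more downward members were higher than lower in line 4, the closest being 25 against 12. Members were brighter than most probes. Among probes with a mean above the median of all values, 13% were called, and 47 of 140 such members (33.6%).

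Both Q74 lines were also set against the Q23 lines at day 1. In limma on RNA isolations, line 6 differed from Q23 in 6.9% and line 4 in 2.39% of all probes. Line 6 was lower than Q23 in 18 downward members (26.1%, against 3.57% of all probes) and higher in 4 (against 3.32%). In upward members it was lower in 8 and higher in 5. Line 4 was higher than Q23 in 11 downward members (15.9%, against 1.51% of all probes) and lower in 3 (against 0.884%), with 4 and 1 in the upward members. Of the 26 downward members that were higher in line 4 than in line 6, 14 were lower in line 6 than in Q23. In 8 line 4 was higher than Q23, 1 was counted in both, and 5 in neither. Over all probes, 686 were higher in line 4 than in line 6, and these counts were 370, 158, 14 and 172. The split of the members was near that of all probes and was not tested. In the 113 downward members chosen without the outlying array, line 6 was lower than Q23 in 22 and higher in 10, and line 4 was higher than Q23 in 5 and lower in 3.

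The downward members were set beside these 350 other downward probes. Line 4 was higher than Q23 at day 1 in 16 of the other 350 (4.57%) and lower in 22, with a median of -0.001, against 0.091 in the members. Line 6 was lower than Q23 in 123 of these 350 (35.1%), with a median of -0.234, against -0.162 in the members. The order of line 4, both Q23 lines and line 6 from high to low held at day 1 in 22 of 69 downward members (31.9%), in 74 of the other 350 (21.1%) and in 10.8% of all probes. These shares are descriptions, and the difference between the lists was not tested. They were counted in the members chosen with every array.

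The gap between lines that the rule did not use was also described. The absolute difference between Q23 line 1 and Q23 line 5 at day 1 had a median of 0.105 in the members, 0.086 in upward and 0.135 in downward ones, against 0.061 for all probes. Brightness differs between the lists as given above, and its part in this was not tested.

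With the lines as replicates, 0 members differed between Q74 and Q23 at day 1 in limma, against 0.155% of all probes (0.12% higher and 0.0355% lower), and 12 members (7.95%) had an unadjusted p under 0.05, against 6.3% of all probes. The median difference was -0.037 in the upward and -0.059 in the downward members, with median standard errors of 0.134 and 0.179. Here the error is the spread between the lines of a construct. With the RNA isolations counted as samples, 5 members were called, 4 upward and 1 downward, against 1.2% of all probes.

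In the Q23 lines and in PC12 cells, which also received doxycycline, the members stayed level. The median day 5 minus day 0 difference along the line 4 direction was 0.005 in Q23 line 1, -0.015 in Q23 line 5 and -0.008 in PC12. In each of them 0 members passed the 0.405 threshold, beside 3, 0 and 2 of all probes. The difference lay outside 0.1 in 37, 35 and 27 members (24.5%, 23.2% and 17.9%), beside 20%, 19.5% and 18.6% of all probes.

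In limma 0 members were called between day 0 and day 5 in Q23 with the line as a block (0% of all probes), and 0 had an unadjusted p under 0.05, against 824 of all probes. In PC12, 0 members were called (0% of all probes), and 1 had an unadjusted p under 0.05, against 523 of all probes. In Q23 line 1 and line 5 taken singly, 0 were called in either by limma (0% of all probes). In each, 2 members (1.32%) had an unadjusted p under 0.05, against 2.22% of all probes in line 1 and 2.97% in line 5. The median standard error of the members was 0.0829 for Q23 and 0.104 for PC12, so differences of the size that chose the members lay several standard errors from 0.

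In PC12 cells the small differences pointed down in both directions of members. The median at day 5 was -0.032 in the upward members, of which 24 of 82 had higher values, and -0.05 in the downward members, of which 47 of 69 had lower values, against -0.008 for all probes. In Q23 line 5, 22 of 69 downward members had lower values, with a median of 0.031.

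A smaller set met the rule in each isolation by itself. In 35 members, 21 upward and 14 downward, both isolations of line 4 passed the threshold and both isolations of line 6 lay within 0.1. Their median difference along their direction in line 4 was 0.599 at day 5 and 0.068 at day 1. At day 5 it was 0.008 in Q23 line 1, -0.004 in Q23 line 5 and -0.003 in PC12. Line 6 at day 1 was closer to the day 5 level of line 4 in 9 of these 14 downward members. This held in 1 of these 21 upward members, beside 46.6% of all probes, most of which changed far less in line 4. At day 1, 8 of the 14 were higher and 1 lower in line 4 than in line 6 in limma, and 6 of the 21 were higher and 0 lower. Each side is 1 line, so these calls rest on the spread of RNA isolations only. Over all probes 3.05% were higher and 3.08% lower. Among the other line 4 responders, 30% of the downward and 12.9% of the upward ones were higher, and 5.43% and 9.46% lower.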

How the data were processed

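The 30 arrays were Illumina RatRef-12 BeadChips. The authors took the mean bead signal of each probe from BeadStudio without background correction and normalized it with VSN in R, and the deposited values are read as natural log values. The log base is not given in the sources used here; it was inferred from their maximum of 11.1, close to 11.09, the natural log of the 16-bit signal limit. Differences are on that scale.

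The pair of isolations of each line and day was averaged. Members and lists were chosen with earlier results of these data known. In R 4.3.3 with limma 3.58.1 (lmFit, eBayes, two-sided, with a call at an adjusted p under 0.05 by the Benjamini-Hochberg method across every probe), line means were fitted for Q74 against Q23 at day 1 (6 residual degrees of freedom) and, with the line as a block, for Q23 day 5 against day 0 (4). RNA isolations in 15 groups of line and day (15 residual degrees of freedom) gave the comparisons of single lines and of PC12. The PC12 arrays of a day were taken as isolations there. Comparisons that share arrays (line 6 or line 4 with Q23) are not independent. The fits were tried on simulated data that held the spread between RNA isolations but no differences between lines. That trial therefore does not cover the spread between lines. PC12 array means (5.52 to 5.53) lay below those of the construct arrays (5.57 to 5.59), so PC12 levels are given as deposited for single probes, and no test set them against construct lines.

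The probes named are the 2 upward and 2 downward members with the largest mean change in line 4 among those past the threshold in both isolations. No table used here pairs probes with genes, so the gene and marker lists were not used. Batch effects were not tested, since neither chip nor scan day is among the labels. Alternatives were a quantile normalization, array medians set equal, a filter on the dimmest 25% of probes, other thresholds, isolations as samples, a replicate block, a variance trend with a robust prior, fewer groups in the fit, identical rows counted once, and leaving out isolations, arrays or lines. Python 3.11.15 and matplotlib 3.10.9 drew the figures.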

Additional observations from a re-analysis of the deposited data

Results flagged for a closer look

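For ILMN_1372916, both RNA isolations of Q74 line 4 were lower at day 5 than at day 0, with a mean difference of -1.044, and both isolations of Q23 line 5 were higher, with a mean difference of 0.045. The opposite signs drew attention to it. The difference was not tested, since the line 4 values chose the probe, and 0.045 is smaller than its standard error of 0.181.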

How the results depend on the processing

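The rule took 157 probes after quantile normalization, 150 after centring on array medians and 149 without the dimmest probes. It took 20 at a 2-fold threshold, 74 and 355 with limits of 0.05 and 0.2 in line 6, and 35 where each isolation had to meet it. Leaving out a replicate, an array or all arrays of an isolation gave 141 to 463. The median day 1 difference in line 4 ranged from 0.073 to 0.199 when an isolation was left out. With an isolation left out, the day 5 medians ranged from -0.013 to -0.011 in Q23 line 1, from 0.016 to 0.024 in Q23 line 5 and from -0.005 to 0.022 in PC12. Those in Q23 line 1 were -0.014 after quantile normalization, 0.003 after centring, 0.003 with identical rows counted once and 0.007 without the dimmest probes, and that in Q23 line 5 was -0.007 after centring. Line 6 against Q23 at day 1, along the line 4 direction, ranged from -0.045 to 0.019 in upward and from 0.06 to 0.139 in downward members with an isolation left out, and from -0.078 to 0.01 and from -0.01 to 0.227 with an array of the rule left out. The value of -0.01, of the opposite sign, came without the day 0 array of line 4, isolation 1. In downward members it was 0.067 after quantile normalization with members chosen again, against 0.162 in the main list. With the original 69 members kept, line 6 minus Q23 was -0.155 after quantile normalization, so the move came with the choice of members.

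Between line 4 and line 6 at day 1, the share of all probes called also moved with the setting, from 6.13% in the main fit. It was 7.27% after quantile normalization (46 of 157 members), 5.46% after centring (38 of 150) and 8.53% without the dimmest probes (48 of 149). With only the compared groups it was 4.97% (40 of 151), and with a variance trend 5.68% (42 of 151). With identical rows counted once, 46 of 146 members were called between line 4 and line 6 at day 1, and 6.09% of all probes. There 38 to 48 members were called under the other scalings and the filter, 40 to 42 with fewer groups or a variance trend, 21 to 54 with a day 1 array left out, and 27 of the 70 members past the threshold in both isolations. Between Q74 and Q23 at day 1, 5 members were called with isolations as samples and 0 to 27 with a line or isolation left out, the 27 without line 4 (3.84% of all probes called) and 8 without line 6 (0.924%). There a construct with a single line borrows its spread from the others. In Q23 and PC12, 0 members were called in every alternative run. The isolation numbers did not qualify as pairing: the rule required every pair to correlate over 0.1, and pairs in Q23 line 1 ranged from -0.314 to 0.529. In the remaining lines and PC12 they ranged from 0.259 to 0.499. With a replicate block, 55 members were called between the Q74 lines at day 1 (7.81% of all probes), 5 between Q74 and Q23 with isolations as samples, and 0 over time in Q23 and in PC12. The number of lines and arrays limits the precision. The alternatives on single arrays, on members chosen again, on identical rows and on probes above the median were added after the data had been seen.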
